A study of Mus musculus with 12 samples.

Results

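The 36 genes described here encode heat shock proteins, their cochaperones, the folding enzymes of the endoplasmic reticulum (ER) and the transcription factors Hsf1 and Hsf2. They were taken by name from the 31053 genes of the deposited single-cell counts, and all 36 were found. By known role, 9 were grouped as stress-inducible (Hspa1a, Hspa1b, Hsph1, Dnajb1, Dnajb4, Bag3, Hspb1, Cryab, Hsp90aa1) and 8 as constitutive cytosolic (Hspa8, Hspa4, Hsp90ab1, Dnaja1, Dnaja2, Dnajb6, Cct2, Cct5). The 4 Hsp90 cochaperones were Chordc1, Ahsa1, Stip1 and Fkbp4. The 10 ER members were Hspa5, Hsp90b1, Dnajb9, Dnajb11, Dnajc3, Pdia3, Pdia4, Pdia6, Calr and Canx. The 3 mitochondrial members were Hspa9, Hspd1 and Hspe1.

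The cells came from breast tumors of MMTV-PyMT mice, in which the mouse mammary tumor virus promoter drives the polyoma middle T oncogene, so that tumors arise in the mammary epithelium without injection of cells. All groups carried this transgene and received no further treatment. They differed in the receptor PAR2, which was either wild-type (PyMT-PAR2 WT) or the mutant PyMT-PAR2 G37I, a form that coagulation factor Xa does not activate. CD11c-positive cells (macrophages and dendritic cells (DCs)) were bead-selected from late-stage tumors, and CD4/CD8 T cells from mid-size tumors, with 3 samples per genotype for each, frozen, thawed and run on the 10x Genomics platform. This platform counts captured mRNA molecules by a unique molecular identifier (UMI). For each cell type the counts of its 6 samples were deposited in 1 matrix whose cell barcodes name no sample. Each matrix was therefore 1 sample, the genotypes were not compared, and no value has a replicate error or a p-value. The 95% confidence intervals (CI) cover counting error only.

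Heat shock proteins bind unfolded stretches of other proteins and help them fold, refold or reach the proteasome. The cytosolic Hsp70 and Hsp90 machines exist in forms that most cells make all the time and in forms whose transcription is driven by Hsf1 when proteins unfold, whereas the ER has its own set under the unfolded protein response. In tumors, digestion of the tissue and handling of the cells are also known to raise the inducible set.

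The CD11c-selected matrix held 11639 cells with at least 200 detected genes and 123642015 UMIs, with a median of 7943 UMIs per cell. The CD4/CD8-selected matrix held 22806 such cells and 135965765 UMIs, with a median of 4361. In each matrix the barcodes ran through the alphabet 6 times, and these 6 barcode runs were kept apart below as a check on pooled values, although no run was linked to a sample. A run held 13314063 to 24231244 UMIs among CD11c-selected cells and 16203038 to 30168668 among CD4/CD8-selected cells. A total of 76 and 51 barcodes occurred more than once. Cells were assigned to types by gates on raw UMIs of marker genes, none of which is a chaperone, and no doublets were removed. The CD11c-selected cells comprised 7303 macrophages, 304 conventional DCs of type 2 (cDC2), 121 of type 1 (cDC1), 301 migratory DCs, 166 neutrophils, 329 epithelial cells and 110 fibroblasts, and 2885 cells (24.8%) met no gate. The CD4/CD8-selected cells comprised 15351 CD8 T cells, 562 conventional CD4 T cells, 34 regulatory T cells, 1069 macrophages and 310 epithelial cells, and 2373 (10.4%) met no gate. The selected cells carried the markers of their labels beyond those used in the gates. Itgax, which encodes CD11c, was at 243 counts per 1000000 UMIs (CPM) in the macrophages, and the T cell kinase Lck was at 325 CPM in the CD8 T cells against 0.209 CPM in the CD11c-selected macrophages. A level in CPM pools all cells of a gate, as the gene's UMIs out of every 1000000 that those cells held together. Levels were compared between cell types. Where genes are set against each other, as in the Hspa1a and Hspa1b pair, shares of a sum or the most abundant marker, the counts are not corrected for length.

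The 36 genes together made up 11344 CPM of the macrophages among CD11c-selected cells and 11142 CPM of the CD8 T cells. The sum was lower in migratory DCs (8855 CPM) and neutrophils (6902 CPM) and was 8638 CPM in the macrophages that remained among the CD4/CD8-selected cells. The cell types differed more in the make-up of this sum than in its size. CD11c-selected macrophages had 4301 CPM of ER members and 4556 CPM of constitutive cytosolic members, whereas CD8 T cells had 2136 and 6496 CPM. The stress-inducible members summed to 1664 CPM in CD11c-selected macrophages and, in the other matrix, to 1528 CPM in CD8 T cells and 1044 CPM in macrophages. They summed to 2753 CPM in epithelial cells among CD11c-selected and 2936 CPM among CD4/CD8-selected cells, the highest sums, of which Hspb1 alone made up 38.0% and 39.7%. Without Hspb1, epithelial cells of the CD11c-selected matrix stood at 1708 CPM, below fibroblasts (1792 CPM) and endothelial cells (1785 CPM). Those of the CD4/CD8-selected matrix then stood at 1771 CPM, above fibroblasts (1635 CPM) and endothelial cells (1114 CPM). They were below conventional CD4 T cells (2031 CPM). The full stress-inducible sum was lowest in cDC1, at 800 CPM.

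**Figure D1:**
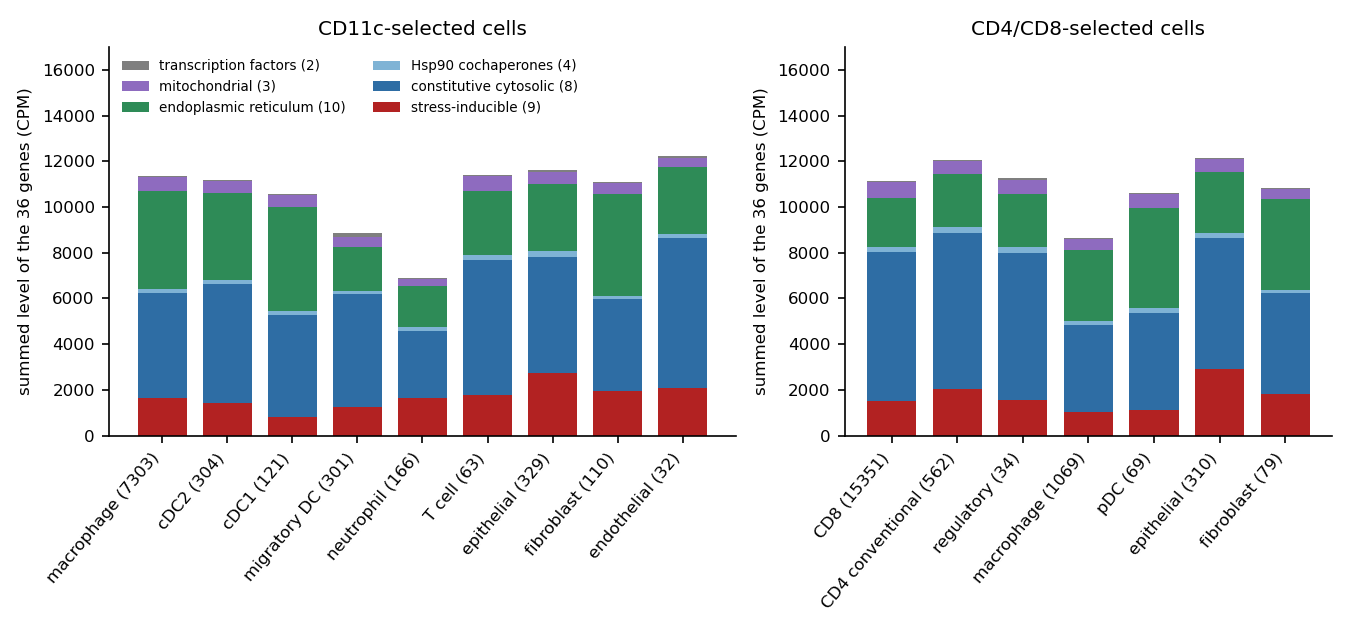
Summed level of the 36 genes in counts per 1000000 UMIs (CPM, vertical axis) in each gated cell type (number of cells in parentheses), stacked by role. The ER share (green) is 4301 CPM in CD11c-selected macrophages, 1902 CPM in migratory DCs and 2136 CPM in CD8 T cells, and the stress-inducible share (red) is highest in epithelial cells, where Hspb1 makes up 38.0% and 39.7% of it.

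Hspa1a and Hspa1b, neighboring genes that encode the same stress-inducible Hsp70, lie at chr17:34969190-34972156 and chr17:34956436-34959238 (GRCm38, both on the minus strand). Their promoters are shown because they are nearly the same sequence. In the 250 bases upstream of the RefSeq starts (GRCm38.p6), 247 bases were identical. Capitals mark GAANNTTC, a head-to-head pair of the units that Hsf1 binds, searched on both strands. The third sequence is the same window of Hspb1, which encodes the small heat shock protein Hsp27 and holds the pair at 2 places.
Hspa1a, chr17:34972157-34972406, minus strand: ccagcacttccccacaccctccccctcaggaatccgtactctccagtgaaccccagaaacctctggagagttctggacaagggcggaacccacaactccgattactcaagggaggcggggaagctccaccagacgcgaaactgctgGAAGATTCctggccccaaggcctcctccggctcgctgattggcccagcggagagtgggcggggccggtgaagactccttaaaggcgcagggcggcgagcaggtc
Hspa1b, chr17:34959239-34959488, minus strand: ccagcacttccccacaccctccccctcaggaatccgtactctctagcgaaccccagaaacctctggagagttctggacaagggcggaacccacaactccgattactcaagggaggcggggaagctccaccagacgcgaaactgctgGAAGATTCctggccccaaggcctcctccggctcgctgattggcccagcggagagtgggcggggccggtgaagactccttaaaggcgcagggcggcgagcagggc
Hspb1, chr5:135887669-135887918, plus strand: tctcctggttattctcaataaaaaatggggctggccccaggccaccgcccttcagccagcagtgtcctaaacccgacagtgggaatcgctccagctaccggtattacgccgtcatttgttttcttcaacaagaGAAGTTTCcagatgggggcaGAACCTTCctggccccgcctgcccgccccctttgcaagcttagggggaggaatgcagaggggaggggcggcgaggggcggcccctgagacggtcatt
With a gene counted once over its windows, GAANNTTC occurred in 7.73% of 27025 RefSeq genes and in 9 of the 30 members that had a window. These were 3 of 7 stress-inducible, 3 of 6 constitutive cytosolic, 2 of 2 mitochondrial and 1 of 4 cochaperone members. None of the 10 ER members held it. The pair was thus not particular to the inducible group. The tail-to-tail pair TTCNNGAA occurred in 8.11% of genes and in 6 members, among them Hsph1 and Dnajb4. The 3-unit form, which is GAANNTTC with NNGAA directly behind it and so contains both pairs, occurred in 0.514% of genes and in Hspd1, Hspe1 and Dnajb6. Short sites of 3 members are given with their flanks for comparison, with the matching letters in capitals.
Hsph1, chr5:149636358-149636373, minus strand: atctTTCTCGAAggct
Hspe1, chr1:55088055-55088080, plus strand: tccgTTCTAGAACCTTCCGGAAggcc
Dnajb6, chr5:29735848-29735868, plus strand: ccgaGAATCTTCCGGAAcgct
These matches are letters in a window and not measured binding. The windows of Hsph1, Hspe1 and Dnajb6 overlap annotated transcripts, whereas those of the Hsp70 pair lie outside their exons.

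Hspa1a stood at 328 CPM in CD11c-selected macrophages, 249 CPM in neutrophils, 204 CPM in cDC2, 201 CPM in migratory DCs, 152 CPM in epithelial cells, 102 CPM in fibroblasts and 97.7 CPM in cDC1. Several of these levels rest on few cells. Without the 5 cells richest in Hspa1a the level was 31.5 CPM in migratory DCs, 16.1 CPM in neutrophils, 6.57 CPM in cDC1 and 103 CPM in cDC2, but 311 CPM in macrophages and 116 CPM in epithelial cells. Hspa1b followed another order, with its highest level in neutrophils (392 CPM), then the 63 T cells (256 CPM), epithelial cells (243 CPM) and macrophages (207 CPM). The first ranks did not hold without the 5 cells richest in Hspa1b, when neutrophils were at 2.31 CPM (5 cells held 174 of 175 UMIs) and T cells at 12.1 CPM, against 220.0 CPM in epithelial cells and 195 CPM in macrophages. Hspa1a made up 61.3% of the UMIs of the pair in macrophages (CI 60.8% to 61.7%, 55.8% to 67.1% over the runs) and 54.4% in CD8 T cells. In epithelial cells it made up 38.5% in both matrices. Reads of these near-identical genes can be split between them by the counting, so this share is uncertain, as is the overlap of Hspa1a with Gm20481 on the opposite strand.

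Within the macrophages, Hspa1a was higher in cells with 2 or more of Lyve1, Cd209f, Cd209g and Fcna, markers of perivascular resident-type macrophages, at 526 CPM in 405 cells. The same gate among CD4/CD8-selected cells gave 529 CPM in 83 cells. Cells with 2 or more of Gpnmb, Spp1, Trem2 and Atp6v0d2, markers of lipid-associated macrophages, had 292 and 109 CPM. The levels of these 2 gates are pooled over runs and are not compared within runs here. Among CD4/CD8-selected cells, 528 of the 1069 macrophages came from run 3, and the part of runs in the difference was not tested. Hspa1a was 121 CPM in cycling and 402 CPM in non-cycling CD11c-selected macrophages. Among the macrophage gates, Dnajb4, an Hsp40 cochaperone of Hsp70, was also highest in the Lyve1 gate (66.3 CPM against 33.0 CPM in all macrophages), and so was Bag3, which links Hsp70 to autophagy (95.6 against 62.2 CPM). Hsph1, the Hsp110 nucleotide exchange factor of Hsp70, was not, at 35.9 against 54.4 CPM. The Lyve1 gate also had more immediate early transcripts, described below, at 13902 CPM for 12 genes against 7829 CPM in all macrophages. Cycling macrophages had fewer of these transcripts than non-cycling ones, at 5248 against 8760 CPM. The part of these transcripts in the chaperone levels was not tested.

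The CD4/CD8-selected matrix held CD8 T cells and macrophages side by side and allowed them to be compared within each of the 6 runs. CD8 T cells had the higher cytosolic sum (1.70-fold, CI 1.69 to 1.72; higher in 6 of 6 runs, 1.21- to 1.75-fold) and the lower ER sum (0.683-fold, CI 0.677 to 0.690; lower in 6 of 6 runs, 0.528- to 0.774-fold). Of the 36 members, 5 were at least 2-fold higher and 5 at least 2-fold lower in CD8 T cells, and of 12260 genes tested 27.5% were higher and 22.4% lower by this measure. The share of members past 2-fold was below that of all genes in both directions. Without run 3, the higher ones were 3 (Dnaja1, Dnajb1 and Fkbp4, with Dnajb6 at 1.98-fold and Hsf1 at 1.51-fold), and the lower ones were 4 (Bag3, Canx, Pdia6 and Pdia4).

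The 5 higher members were 4 cochaperones of the cytosolic Hsp70 and Hsp90 machines and Hsf1. Dnaja1, an Hsp40 cochaperone, was at 934 CPM in CD8 T cells and 235 CPM in macrophages, a 3.97-fold difference (1.85- to 3.87-fold over the runs). Dnajb1, the main inducible Hsp40, was 3.62-fold higher (203 against 56.1 CPM, 1.81- to 3.43-fold over the runs), the Hsp90 cochaperone Fkbp4 3.05-fold (93.4 against 30.7 CPM), Dnajb6 2.44-fold (392 against 161 CPM, from 1.48-fold) and Hsf1, the master factor of the heat shock response, 2.38-fold (41.6 against 17.5 CPM, from 1.34-fold). Each was higher in CD8 T cells in 6 of 6 runs. For CD8 T cells against macrophages, the shares of all genes higher or lower in every run were not counted. Hsp90ab1, the constitutive Hsp90, was 1.70-fold higher (1926 against 1130 CPM, 6 of 6 runs), and the chaperonin subunits Cct2 and Cct5 were 1.83-fold higher, also in every run. Hspa8, the constitutive Hsp70, was 1.36-fold higher and did not separate the types in all runs (5 of 6).

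On the lower side stood ER members and Bag3. The membrane lectin Canx was at 97.3 CPM in CD8 T cells and 293 CPM in macrophages (0.332-fold), its soluble relative Calr at 449 and 806 CPM (0.556-fold), and the disulfide isomerases Pdia6, Pdia4 and Pdia3 were 0.406-, 0.507- and 0.619-fold. These 5 genes and Hsp90b1, the ER Hsp90 (0.622-fold), were lower in CD8 T cells in 6 of 6 runs. Hspa5, the ER Hsp70 known as BiP, was almost level in the pooled cells (693 and 668 CPM) and yet lower in CD8 T cells in 5 of 6 runs, since 528 of the 1069 macrophages came from run 3, where their Hspa5 was lowest (550 CPM). Bag3 was 0.205-fold (10.6 against 51.7 CPM, lower in 6 of 6 runs). Cryab was 0.159-fold at levels under 3 CPM in both types. Hspb1 was 0.0774-fold, but 1 macrophage held 1751 of its 2037 UMIs. Without the 5 cells richest in Hspb1, macrophages were at 7.87 CPM, and with them CD8 T cells were higher in 3 runs and lower in 3.

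The stress-inducible sum was 1.46-fold higher in CD8 T cells when pooled and 0.914- to 1.40-fold within runs, higher in 4 of 6. The pooled value lay above every run, with 528 of the 1069 macrophages from run 3. For Hspa1a, CD8 T cells had 0.781-fold the pooled level of macrophages but 0.188- to 0.556-fold within runs, lower in 6 of 6, and for Hspa1b the pooled fold was 1.01 and the runs gave 0.268 to 0.655. The inducible Hsp70 pair was thus lower and the Hsp40 genes Dnajb1 and Dnaja1 were higher in CD8 T cells than in macrophages of every run. Macrophages in this matrix carried 103 CPM of 6 T cell markers (Trbc2 the most abundant, none at 0), against 1.23 CPM in CD11c-selected macrophages, and the part of T cell RNA in these folds was not tested.

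**Figure D2:**
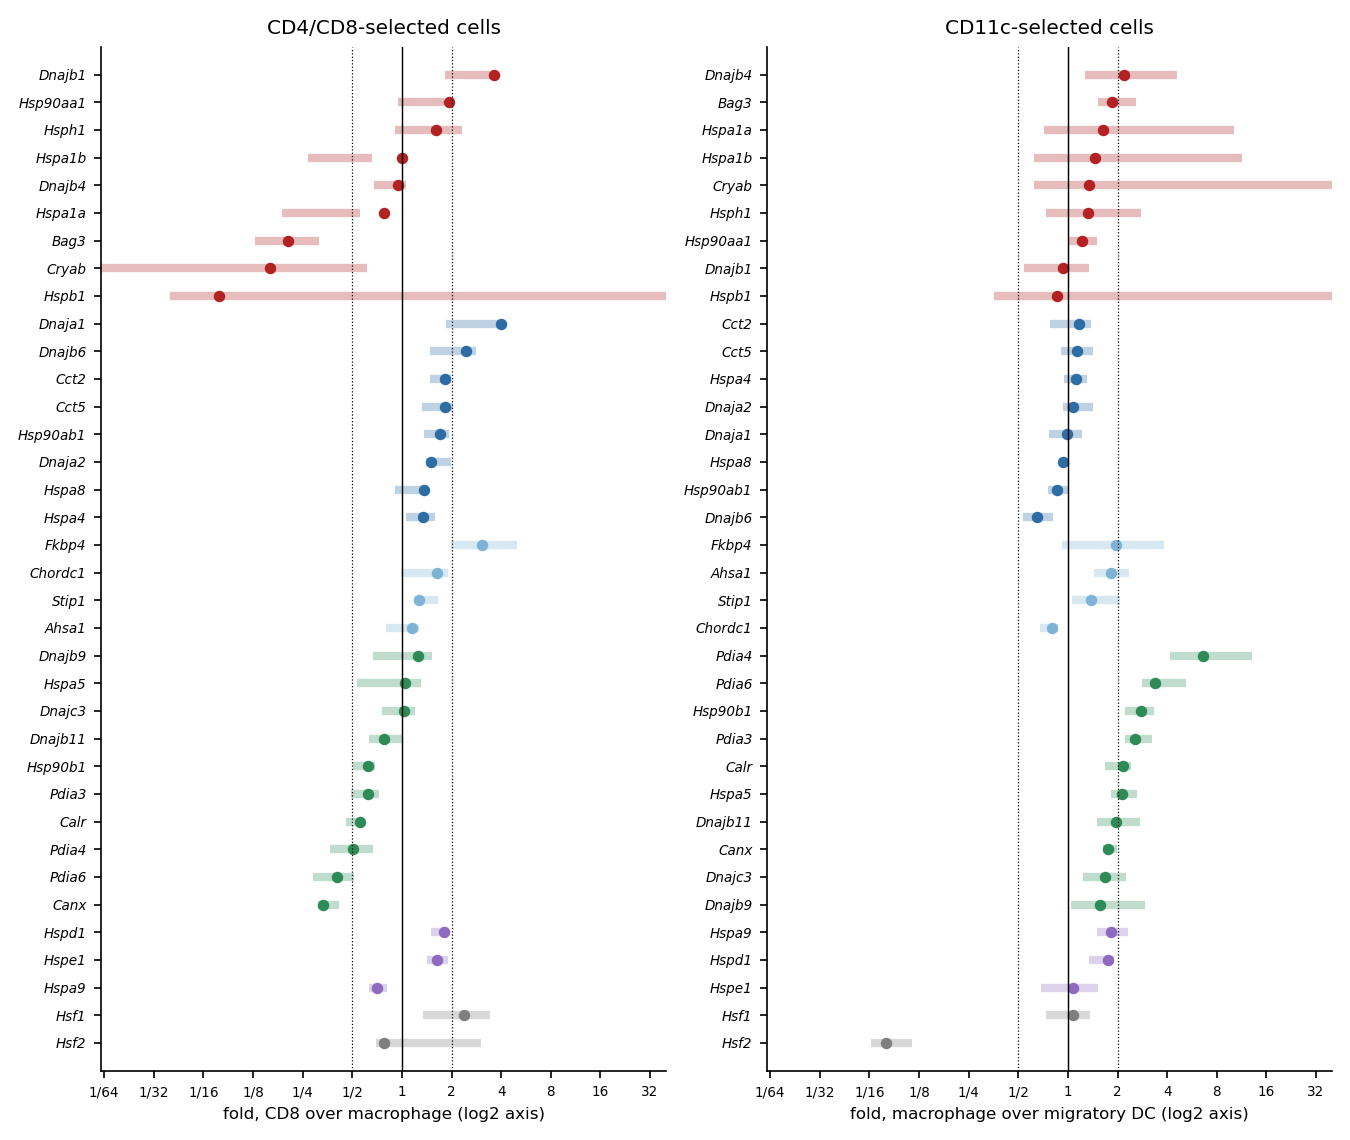
Fold of each of the 36 genes between 2 gates (horizontal, log2 axis), with the pooled fold as a point and the range over barcode runs with at least 20 cells in both gates as a band (cut at the axis limits), colored by role as red stress-inducible, blue cytosolic, light blue cochaperones, green ER, purple mitochondrial and grey transcription factors. ER members lie mostly left of 1 for CD8 over macrophage and all right of 1 for macrophage over migratory DC. In the left panel, the points of Hspa1a, Hspa1b, Dnaja1, Dnajb1 and Hsp90aa1 lie above their run bands.

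Against migratory DCs, the mature DCs that carry antigen to lymph nodes, the ER set differed most among the chaperone groups, with 4301 CPM in macrophages and 1902 CPM in migratory DCs (2.26-fold, CI 2.20 to 2.32; 2.02- to 2.41-fold over 5 of 5 runs). All 10 ER members were higher in macrophages in each of the 5 runs, as were 37.1% of all genes. At least 2-fold higher were 7 members, of 36, and 30.3% of 11807 genes. They were Pdia4 (83.1 against 12.6 CPM, 6.59-fold), Pdia6 (3.36-fold), Hsp90b1 (698 against 252 CPM, 2.77-fold), Pdia3 (2.55-fold), Calr (2.17-fold), Hspa5 (1181 against 556 CPM, 2.12-fold) and the inducible Dnajb4 (2.20-fold). The cochaperone sum was 1.41-fold and the mitochondrial sum 1.33-fold higher in macrophages, each in 5 of 5 runs. The median fold of all genes was also above 1 in this comparison. It lay within the CI of both sums, so neither sum stood apart from a typical gene. The cytosolic set stood at 4556 CPM in macrophages and 4950 CPM in migratory DCs. Of 30 tested genes in a separate list of other folding and stress genes, 7 were at least 2-fold higher in macrophages, a smaller share than among all genes. Serpinh1 was counted among the 7 with 55 UMIs in macrophages and none in migratory DCs. So small a migratory DC gate cannot show a difference at this level. The 7 also include the ER stress genes Sdf2l1 (3.44-fold), Manf (2.73-fold), Xbp1 (2.28-fold) and Hyou1 (2.27-fold), each in 5 of 5 runs. Herpud1, an ER stress gene of the same list, went the other way (156 against 297 CPM, 0.527-fold), as did Hspa13 (0.709-fold), both lower in macrophages in 5 of 5 runs. Migratory DCs also had fewer immediate early transcripts, at 4695 CPM for 12 genes against 7829 CPM in macrophages.

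Hsf2 (chr10:57486385-57513135), a developmental relative of Hsf1, went the other way and was the 1 member lower in macrophages by this measure, where 11.3% of genes were. It stood at 134 CPM in migratory DCs (CI 121 to 148) and 10.6 CPM in macrophages, a 12.6-fold difference present in 5 of 5 runs. The level was 13.3 CPM in cDC2, 11.5 CPM in cDC1, 13.9 CPM in epithelial cells and 9.39 CPM in CD8 T cells, so that no gate of 50 or more cells in either matrix came near that of migratory DCs. The signal was spread over cells, with a UMI in 163 of 301 migratory DCs and 9.92% of the UMIs in the 5 richest cells. It was 166 CPM in the 169 migratory DCs without any UMI of an epithelial, fibroblast or endothelial marker. Hsf1 was alike in both types, at 19.8 and 21.2 CPM.

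Against cDC1, the DCs that cross-present antigen to CD8 T cells, the inducible set differed most, at 1664 against 800 CPM (2.08-fold, 1.17- to 2.78-fold over 3 of 3 runs), while the ER sum was 4301 against 4526 CPM. All 9 inducible members were above cDC1 in the pooled cells, as were 59.8% of 11743 genes, and 5 of the 36 members were at least 2-fold higher (background 26.9% higher and 8.52% lower) and 0 lower. These were Dnajb4 (33.0 against 2.87 CPM, 11.5-fold, CI 4.91 to 35.4), Hspb1 (21.4 against 2.30 CPM, 9.32-fold), Hspa1b (3.88-fold), Hspa1a (3.35-fold) and Bag3 (62.2 against 20.7 CPM, 3.01-fold). The cDC1 values rest on 121 cells with 5 UMIs of Dnajb4 and 4 of Hspb1, and the Hspa1a fold ranged from 0.880 to 40.8 over the runs. In cDC1, 5 cells held 159 of the 170 UMIs of Hspa1a. The pooled fold of Hspb1 lay above its runs (2.26 to 6.02) and was 5.30 without the 5 macrophages richest in it, which held 708 of their 1640 UMIs. Against cDC2, the sums by role were 0.742-fold (Hsf1 and Hsf2) to 1.23-fold (mitochondrial). Only Hspb1 passed 2-fold there (5.42-fold, or 3.09-fold without those 5 macrophages, with 16 UMIs in cDC2), where 19.3% of genes were higher and 6.02% lower.

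Small heat shock proteins and Bag3 were also compared in the non-immune cells that remained after selection. Hspb1 was at 1045 CPM in epithelial cells among CD11c-selected and 1165 CPM among CD4/CD8-selected cells. It was 293 CPM in 32 endothelial cells (163 CPM without the 5 richest), 183 CPM in 110 fibroblasts and 21.4 CPM in macrophages, a 48.8-fold difference between epithelial cells and macrophages that held in 5 of 5 runs and was 85.8-fold without the 5 macrophages richest in Hspb1. Cryab, the small heat shock protein alpha B-crystallin known from lens and muscle, was highest in fibroblasts, at 256 and 164 CPM in the 2 matrices. It stood at 59.7 and 80.1 CPM in epithelial cells and 2.28 CPM in macrophages. The 5 richest cells held 57.4% of the fibroblast UMIs of Cryab and 67.2% of those of Hspb1 among CD11c-selected cells, and without them these levels were 117 and 64.9 CPM. Bag3 was 275 CPM in endothelial cells, 267 CPM in fibroblasts, 113 CPM in epithelial cells, 62.2 CPM in macrophages and 20.7 CPM in cDC1. Between epithelial cells and macrophages it did not pass 2-fold.

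Of the 36 members, 4 were at least 2-fold lower in macrophages than in epithelial cells (26.4% of all genes) and 2 were higher (18.9%). Besides Hspb1 and Cryab, the lower ones were Fkbp4 (44.4 against 104 CPM, 0.426-fold) and Dnajb1 (70.8 against 144 CPM, 0.490-fold), each in 5 of 5 runs. The higher ones were Hspa1a (2.16-fold) and the ER cochaperone Dnajb11 (2.01-fold), also in 5 of 5. The near-identical Hspa1b went the other way when pooled, at 207 CPM in macrophages and 243 CPM in epithelial cells. Since the split of counts within this pair is uncertain, so is the fold of Hspa1a. The shares of all genes higher or lower in every run were not counted for macrophages against epithelial cells. The ER sum was 1.46-fold higher in macrophages (1.05- to 1.78-fold over the runs). Epithelial cells of the CD11c-selected matrix had a median of 9.47% mitochondrial UMIs against 4.69% in macrophages and 10790 against 7829 CPM of immediate early transcripts, whose part in these differences was not tested. Against the 63 T cells among CD11c-selected cells, 4 members were at least 2-fold higher in macrophages and 3 lower (31.9% and 19.7% of genes). The higher ones were Pdia6 (2.31-fold), Bag3 (3.26-fold, 7 UMIs in T cells), Hspb1 (3.92-fold, 2 UMIs in T cells) and Cryab. Cryab had 175 UMIs in macrophages and 0 in T cells, with a CI of the fold from 0.225. So small a T cell gate cannot show a difference in Cryab, although it is counted among the 4. The lower ones, Dnaja1, Dnajb6 and Dnajb1, were also lower in macrophages than in CD8 T cells of the other matrix. Only 1 run held 20 such T cells.

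None of 35 tested members differed 2-fold between CD8 and conventional CD4 T cells, where 9.42% of 11350 genes were higher and 5.99% lower in CD8 T cells. Hspa1a came closest, at 114 CPM in CD8 and 213 CPM in CD4 T cells, but CD8 T cells were higher in 2 of 5 runs. Regulatory T cells had 22.2 CPM of Hspa1a, which is 5 UMIs in 34 cells. Compared with conventional CD4 T cells, 4 of 32 members were at least 2-fold lower in regulatory T cells (9.67% of genes) and 0 higher (8.12%). They were Hspa1a, Hspa1b, Dnajb6 (217 against 550 CPM) and Dnajc3, with no run of 20 cells to compare within. CD8 T cells with both Pdcd1 and Havcr2, markers of exhaustion, had 57.7 CPM of Hspa1a in 563 cells, and those with naive or memory markers and no Pdcd1 had 108 CPM in 1956 cells. The former were lower in 6 of 6 runs, by little in run 4 (249 against 255 CPM) and by more in run 6 (52.3 against 188 CPM). Run 4 held 147 of the 234 Hspa1a UMIs of the Pdcd1 and Havcr2 gate, in 89 of its 563 cells, so its pooled level rests largely on that run.

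Cycling CD8 T cells had more of several constitutive chaperones. None of 35 members passed 2-fold against non-cycling cells (8.26% of genes higher and 3.06% lower), but the ER sum was 1.20-fold and the cochaperone sum 1.42-fold higher, each in 6 of 6 runs. Hsp90b1 was 456 against 250 CPM (1.83-fold), Pdia6 123 against 71.4 CPM (1.73-fold) and Stip1, which hands substrates from Hsp70 to Hsp90, 76.7 against 44.9 CPM (1.71-fold). All 3 were higher in each run. The inducible sum was 1.05-fold and the inducible median 0.835-fold, against a median of 1.02 for all genes, and the inducible Dnajb1, Dnajb4, Bag3 and Hspb1, together with Dnajb9, Dnaja1 and Dnajb6, were lower in cycling cells in 6 of 6 runs. The shares of all genes higher or lower in every run were not counted for this comparison. Cycling cells were deeper, with a median of 11131 UMIs against 4428. Their immediate early sum was 0.781-fold (3757 against 4813 CPM) and lower in 6 of 6 runs, and its part was not tested.

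The spread between runs was widest for the inducible members. Among members with at least 1000 UMIs in CD8 T cells, the highest run stood above the lowest by a median of 2.31-fold for 6 inducible members, 1.34-fold for 8 cytosolic and 1.20-fold for 10 ER members, and by 1.39-fold for all 6488 such genes. In CD11c-selected macrophages the medians were 1.80-fold for 8 inducible, 1.21-fold for 8 cytosolic, 1.43-fold for 10 ER, 1.47-fold for 4 cochaperone and 1.53-fold for 3 mitochondrial members, and 1.39-fold for 6537 genes. A spread of at least 2-fold was found for 3 of 32 members in CD8 T cells (7.89% of all genes) and 3 of 34 in macrophages (7.66%). All were inducible.

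In CD8 T cells, Hspa1a stood at 106, 31.1, 18.4, 251, 81.6 and 177 CPM in runs 1 to 6, a 13.7-fold range. Hspa1b stood at 77.1, 24.4, 15.3, 256, 70.8 and 137 CPM, a 16.7-fold range. Both genes were lowest in run 3 and highest in run 4, in the same order of runs. Hsph1 varied 2.87-fold, highest in run 1 at 106 CPM and lowest in run 2, and Dnajb1 1.76-fold. The constitutive Hspa8 was 2837, 2081, 2113, 2373, 2000 and 2742 CPM, and Hsp90b1 ranged only from 272 to 305 CPM. The macrophages of the same runs had 223, 83.3, 98.1, 452, 341 and 332 CPM of Hspa1a, with runs 2 and 3 lowest and run 4 highest, as in the CD8 T cells. Immediate early genes did not vary in this way in CD8 T cells, with sums of 4482, 4862, 4389, 5367, 3875 and 4648 CPM. In the macrophages of these runs their sums were 7434, 6189, 3463, 8749, 7893 and 8414 CPM, again lowest in runs 2 and 3. The median mitochondrial share of CD8 T cells was 3.90%, 4.30%, 3.20%, 4.51%, 4.97% and 4.67% in runs 1 to 6, lowest in run 3 but highest in run 5. Macrophage markers (6 genes) in the CD8 T cells came to 127 CPM in run 3 and 3.05 to 21.1 CPM in the other runs, and their part in these levels was not tested.

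Hspa1a and Hspa1b varied less over the runs of CD11c-selected macrophages, whereas other members varied as much or more. Hspa1a was 274, 290, 290, 357, 457 and 244 CPM in their runs 1 to 6. Hspa1b ranged from 162 to 279.5 CPM and Hsp90aa1, the inducible Hsp90, from 743 to 997 CPM. Hsph1 ranged from 23.9 CPM in run 4 to 84.2 CPM in run 5, and Hspb1 from 8.55 CPM in run 1 to 39.8 CPM in run 5, with 708 of its 1640 UMIs in 5 cells. Run 5 had the highest inducible sum (2025 CPM) and the lowest immediate early sum (6051 CPM). Run 4 held 256 macrophages with a median of 30695 UMIs and was second to run 5 in Hspa1a.

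**Figure D3:**
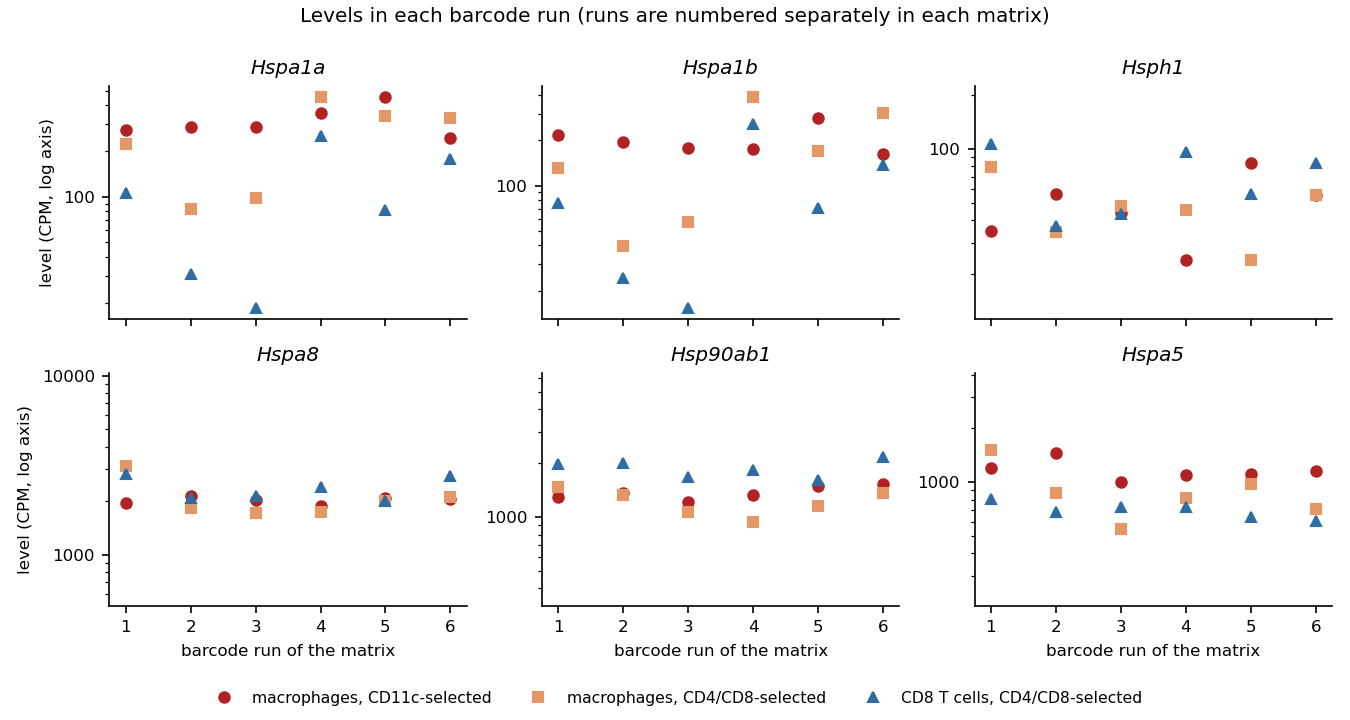
Level of 3 inducible (upper row) and 3 constitutive members (lower row) in each barcode run (CPM on a log axis spanning the same number of folds in each panel), for macrophages of both matrices and CD8 T cells. Hspa1a in CD8 T cells (triangles) runs from 18.4 CPM in run 3 to 251 CPM in run 4, while Hspa8 stays between 2000 and 2837 CPM.

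Hspa1a and Hspa1b were carried by few cells. A cell was called high with at least 3 UMIs of the pair and at least 10 of these per 10000 UMIs. This is a range of a continuous level and not a cell type, with 117 macrophages between 10 and 15 per 10000 and 128 between 7 and 10. Among CD11c-selected macrophages, 628 of 7303 cells were high (8.60%, CI 7.97% to 9.27%) and held 84.4% of the UMIs of the pair, while 4425 cells (60.6%) had none. Among CD8 T cells, 540 of 15351 were high (3.52%, CI 3.23% to 3.82%) and held 87.5% of the UMIs, while 13351 (87.0%) had none. Thinned to 2000 UMIs per cell, which left out 1192 macrophages and 676 CD8 T cells below that depth, the shares were 8.56% and 3.27%. High and other cells differed little in depth, with medians of 7549 against 7984 UMIs in macrophages and 4896 against 4733 in CD8 T cells. No cell type is known to lack these genes, so a background share from free RNA could not be measured.

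The share of high cells was 10.7%, 6.69%, 9.16%, 12.5%, 9.86% and 6.84% in runs 1 to 6 of the macrophages. In CD8 T cells it was 3.13%, 0.794%, 0.530%, 6.26%, 2.03% and 6.41%, a wider range, with runs 2 and 3 lowest as for the levels. After thinning these runs stood at 2.96%, 0.847%, 0.463%, 5.85%, 1.95% and 5.84%. By gate, the highest share was in Lyve1-gated macrophages, at 17.2% of 395 thinned CD11c-selected cells (CI 13.6% to 21.3%) and 13.9% of 79 CD4/CD8-selected cells (CI 7.16% to 23.5%). Without thinning these shares were 18.8% and 15.7%. Cycling macrophages had 4.51% and non-cycling 9.61%, and 4.26% and 9.69% without thinning. The unthinned share was lower in cycling cells in 6 of 6 runs, though each run held 1 to 9 high cycling cells. Among CD11c-selected cells, epithelial cells had 10.2%, cDC2 7.36%, cDC1 4.31%, migratory DCs 2.66% and neutrophils 1.63%, with wide intervals. Epithelial cells among CD4/CD8-selected cells had 6.27%.

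**Figure D4:**
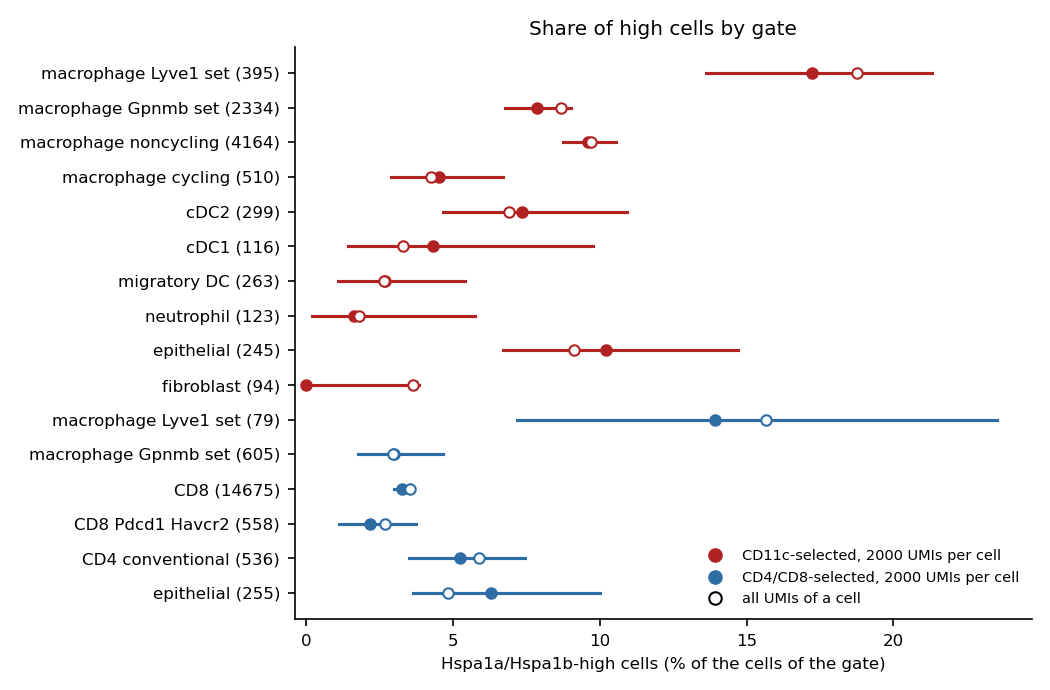
Share of cells high in Hspa1a and Hspa1b (percent, horizontal axis) in each gate, with filled points and 95% Clopper-Pearson intervals after thinning to 2000 UMIs per cell (number of thinned cells in parentheses) and open points for all UMIs. Lyve1-gated macrophages have the highest share in both matrices, 17.2% and 13.9%.

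The other 34 members were then compared between high and other cells of the same gate. The cells were chosen on Hspa1a and Hspa1b, so the values of that pair are no result. Of 33 other members with at least 200 UMIs, 7 were at least 2-fold higher in high macrophages, and 2.29% of 9812 genes were. In CD8 T cells, 12 of 33 were, and 1.35% of 9534 genes. The inducible group gave 5 of the 7 and 6 of the 12, and the ER set gave Dnajb9 in macrophages and none in CD8 T cells.

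Hsph1 was at 322 CPM in high macrophages and 31.4 CPM in the others (10.3-fold, 2.66- to 14.8-fold over 6 of 6 runs), and at 517 against 56.7 CPM in CD8 T cells (9.11-fold, higher in the 4 runs with 20 high cells). Dnajb1 was 4.79- and 5.51-fold higher in macrophages and CD8 T cells, Hsp90aa1 3.33-fold (2484 against 747 CPM) and 4.38-fold (3917 against 895 CPM), and Bag3 3.11- and 4.67-fold. Dnajb4 was 1.64-fold higher in macrophages and 3.31-fold in CD8 T cells. Each of these was higher in all runs compared, as were 9.34% of all genes in macrophages and 8.95% in CD8 T cells. Hspb1 was 15.2- and 10.9-fold higher, but 5 macrophages held 708 of its 1640 UMIs, and without the 5 richest cells of each gate the folds were 6.39 and 4.67. Cryab did not join them, at 2.80 against 2.24 CPM in macrophages and with 0 UMIs in high CD8 T cells.

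Members grouped as constitutive split in these cells. Dnaja1 was 2.76-fold higher in high macrophages (824 against 299 CPM) and 2.35-fold in high CD8 T cells. Hspa8 was 1.64- and 2.05-fold, Hsp90ab1 1.42- and 2.17-fold, and the mitochondrial chaperonin pair Hspd1 (1.74- and 2.57-fold) and Hspe1 (1.78- and 2.01-fold) were also higher, each in every run. By contrast, Hspa4, an Hsp110 relative, was 0.874- and 0.781-fold, and Hspa9, the mitochondrial Hsp70, 0.870- and 0.847-fold, both lower in every run. The median fold of all genes was 0.980 in macrophages and 0.917 in CD8 T cells. Cct2 and Cct5 were 0.824- and 0.835-fold in macrophages, lower in 6 of 6 runs. The Hsp90 cochaperone Ahsa1 was 2.38-fold higher in high CD8 T cells and 1.37-fold in macrophages. Hsf1 transcripts were level, at 0.909- and 1.13-fold.

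The ER sum was 1.13-fold in high macrophages and 1.04-fold in high CD8 T cells. In each gate 3 of its 10 members were above 1, as were 46.3% of all genes in macrophages and 34.4% in CD8 T cells. Hspa5 was 1.47- and 1.25-fold and Dnajb9, an ER Hsp40, 2.14- and 1.52-fold, each in every run. Pdia6 was 0.904- and 0.731-fold and Dnajb11 0.841- and 0.707-fold. Of the ER members, 6 of 10 held in their promoter window the ER stress response element, spelled as CCAAT, 9 bases of any kind and CCACG, against 0.130% of all genes and 0 of the other 20 members with a window. They were Hspa5, Calr, Hsp90b1, Canx, Pdia6 and Dnajc3, and 3 of them are shown because these letters set the ER members apart from the inducible ones. Capitals mark the element, on either strand.
Hspa5, chr2:34772021-34772047, plus strand: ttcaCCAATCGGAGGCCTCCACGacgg
Calr, chr8:84847071-84847097, minus strand: aacgCGTGGTCGACCCTCATTGGccca
Hsp90b1, chr10:86705510-86705694, minus strand, 185 bases before its start: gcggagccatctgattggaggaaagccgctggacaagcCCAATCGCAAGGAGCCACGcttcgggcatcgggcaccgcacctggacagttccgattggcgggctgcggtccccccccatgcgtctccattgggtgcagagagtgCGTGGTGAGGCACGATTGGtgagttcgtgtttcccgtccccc
Hspa5 was higher and Pdia6 lower in high cells, although both hold the element.

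**Figure D5:**
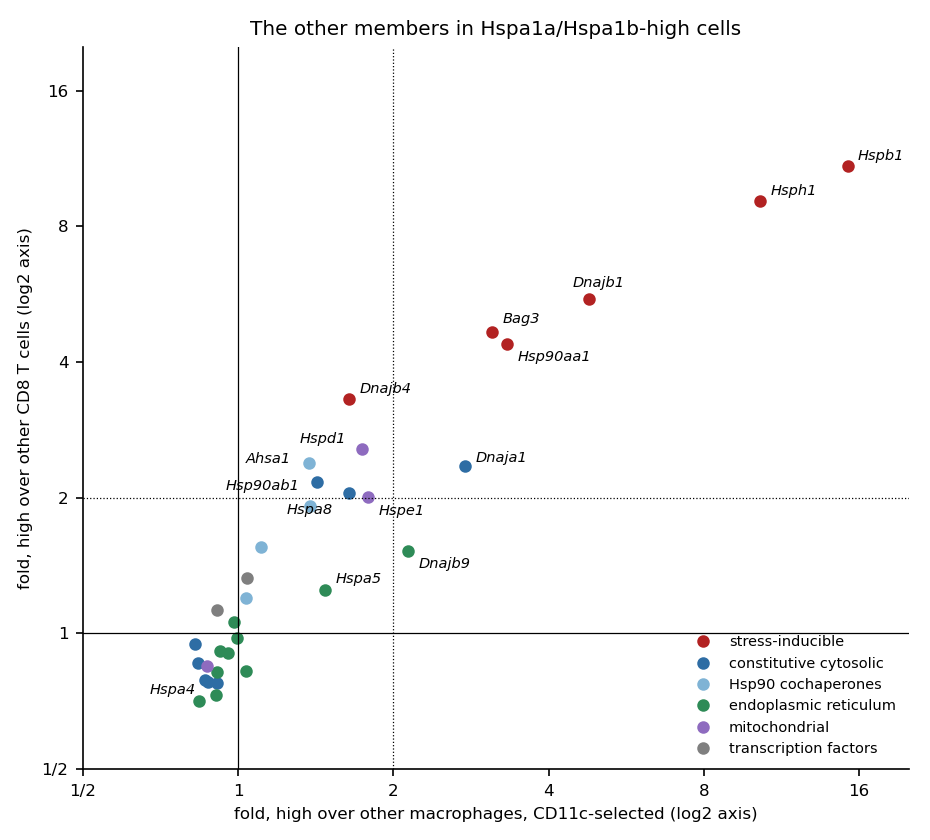
Fold of the other members in Hspa1a/Hspa1b-high over other cells, for CD11c-selected macrophages (horizontal) and CD8 T cells (vertical), both on log2 axes with dotted lines at 2-fold. Inducible members (red) lie at the upper right, with Hsph1 at 10.3 and 9.11, and most ER members (green) lie near or below 1. Cryab, with 0 UMIs in high CD8 T cells, is not drawn.

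The small gate of macrophages among CD4/CD8-selected cells, with 54 high cells of 1069 (5.05%), gave 8 of 33 members past 2-fold (2.06% of 6940 genes). They were Dnajb1 (8.20-fold), Hsph1 (7.88-fold), Hsp90aa1 (5.11-fold), Dnaja1 (3.59-fold), Hspd1 (3.10-fold), Bag3 (2.31-fold), Hspe1 (2.30-fold) and Dnajb9 (2.21-fold). No run held 20 of these high cells, and they were shallower than the others, with a median of 11178.5 against 16395 UMIs. Hspb1 was not among them, at 61.2 CPM in high and 109 CPM in other cells, with the cell of 1751 UMIs among the latter. Without the 5 richest cells the direction turned, with 31.0 CPM in high and 7.004 CPM in other cells (4.42-fold). The genes with the highest folds outside the lists were here Cd209f (8.07-fold), Cd209g (7.35-fold) and Btg2 (6.21-fold), and Lyve1 was 4.74-fold higher, so that 3 of the 4 genes of the Lyve1 gate were among them.

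High cells were also richer in immediate early genes, transcription factors and regulators that are induced within minutes by many stimuli, tissue digestion among them. All 12 listed genes were higher in high cells of both gates, where 46.3% of all genes were in macrophages and 34.4% in CD8 T cells. Past 2-fold were 6 of 12 in macrophages and 7 of 12 in CD8 T cells, beside the 2.29% and 1.35% of genes given above. Their sum was 14367 against 7265 CPM (1.98-fold, 6 of 6 runs) and 8070 against 4475 CPM (1.80-fold, 4 of 4 runs). Egr1 was 5.24-fold and Atf3 3.75-fold higher in macrophages, and Jun was 3.22-fold and Nr4a1 3.67-fold higher in CD8 T cells. Their part in the chaperone levels was not tested. Markers of other cell types had similar sums in high and other macrophages. The 7 epithelial markers, all detected, summed to 40.2 CPM in high and 41.0 CPM in other cells (Krt18 the most abundant in high cells, at 13.5 CPM). The 5 fibroblast markers, all detected, summed to 9.71 and 8.52 CPM. The 6 T cell markers summed to 1.15 and 1.23 CPM, with Trbc2 at 0 in high cells. In CD8 T cells the 6 macrophage markers summed to 11.0 CPM in high and 26.1 CPM in other cells, with Mertk and Fcgr1 at 0 in high cells. Run 3, which carried most of these markers, held 13 of the 540 high cells, and within runs high cells were higher in 3 of 6. Of 29 other folding and stress genes with at least 200 UMIs, 0 passed 2-fold in macrophages and 2 in CD8 T cells, Cacybp (2.10-fold) and Ddit3 (2.08-fold).

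Outside these lists, the 10 genes with the highest pooled folds in high macrophages were Hes1 (7.65-fold), Slc5a3 (6.30-fold), Klf2 (5.58-fold), Ciart, Pou3f1, Arl4d, Fbxl18, Dlg4, Polr2l and Egr3 (4.06-fold). All were higher in 6 of 6 runs, but their order is uncertain, with Hes1 at 1.51- to 19.5-fold and Pou3f1 at 1.24- to 8.10-fold over the runs. In CD8 T cells they were the chemokine genes Ccl3 and Ccl4 (both 10.3-fold), Myc (6.55-fold), Egr2, Rhob, Irf4, Spin2c, Ifng (4.90-fold), Tnfsf14 and Phlda1 (3.97-fold). The 4 runs gave 12.8- to 21.4-fold for Ccl3, above its pooled value. Several of the latter are targets of T cell receptor signaling. Ccl4 stood at 1168 CPM in high and 114 CPM in other CD8 T cells, and Ifng, the gene of interferon-gamma, at 627 and 128 CPM.

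Hspd1 and Hspe1, the mitochondrial Hsp60 and its lid, are neighbors on opposite strands of chromosome 1 (chr1:55077835-55088243 and chr1:55088132-55091307) and overlap in the annotation. Hspe1 counts were 2.24 times those of Hspd1 in CD11c-selected macrophages, 2.25 times in CD8 T cells, 3.68 times in migratory DCs and 1.44 times in neutrophils, and 1.40 and 1.41 times in epithelial cells of the 2 matrices. The effect of this overlap on the counts was not tested, so the ratio is uncertain. Hspa9 did not follow the pair. In CD8 T cells it was 0.705-fold the level of macrophages while Hspd1 was 1.81-fold and Hspe1 1.63-fold, each in 6 of 6 runs.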

How the data were processed

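Single-cell transcripts were measured in CD11c-selected and CD4/CD8-selected tumor cells. Per the labels, the authors processed reads with Cell Ranger 3.0.2 and mm10, and deposited UMI counts as whole numbers, without normalization, in 2 matrices that each pool 6 samples. Genotypes were not compared for this reason. Barcodes with fewer than 200 detected genes (341 and 295) were left out. A gate asked for UMIs of at least 3 of its markers (2 for DCs and B cells) and 75% of a cell's marker UMIs. Levels are UMIs summed over a gate per 1000000, with exact Poisson intervals, folds have conditional binomial and shares Clopper-Pearson intervals, all at 95%. These intervals and the floor of 3 counts cover counting error only. Folds were called past 2-fold among genes with at least 50 UMIs over both gates, and within runs of at least 20 cells per gate. The genes described in full are members at 1000 CPM or more or past 2-fold, and the 10 genes with the highest fold in high cells. The members, role groups, marker and gene lists were chosen with earlier results of these data known. Symbols matched GENCODE M21 for 30431 of 31053 genes (98.0%), and promoters are RefSeq windows, present for 30 of 36 members. Python 3.11.15, numpy 2.4.6, scipy 1.17.1, pandas 2.3.3 and matplotlib 3.10.9 were used, and the fold and interval steps were tested on simulated data. Alternatives were other gate settings, depth and mitochondrial filters, leaving out a run, a mean over cells, leaving out high cells and other cutoffs. Leaving out the 5 cells richest in a gene (Hspb1, Hsf2, Hspa1a, Hspa1b, Cryab, Bag3 or Hsph1), or cells with markers of non-immune cells, the inducible sum without Hspb1, and within-run values of CD8 T cell subsets, cycling macrophages and macrophage markers were chosen after seeing the data.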

Additional observations from a re-analysis of the deposited data

How the results depend on the processing

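Of 162 values computed under alternatives, 80 stayed within the limit set for them and 82 moved past it. The limit was the counting interval of the main value. For counts of members, which have no interval, it was a 1.5-fold change. The 3 folds of CD8 over macrophage stayed on the same side of 1. With high cells left out, the inducible sum was 1020 CPM in macrophages and 1193 CPM in CD8 T cells, the cytosolic and mitochondrial sums in CD8 T cells were 6303 and 675 CPM, the macrophage ER sum was 4259 CPM, and the folds of CD8 over macrophage were 1.55 (inducible) and 1.69 (cytosolic). As a mean over cells, the inducible sums were 1876 and 1581 CPM, the ER sums 4330 and 2179 CPM, the cytosolic and mitochondrial sums in CD8 T cells 6313 and 661 CPM, and the folds 1.32 (inducible), 1.64 (cytosolic) and 0.707 (ER). With 4 markers and 90% per gate, CD8 T cells had 1549 (inducible), 2151 (ER) and 692 CPM (mitochondrial), macrophages 4336 CPM (ER), and the folds were 1.51, 1.73 and 0.694. With 2 markers and 60% the macrophage ER sum was 4267 CPM. Without cells of 10% or more mitochondrial UMIs, the ER sums were 4317 and 2123 CPM, the cytosolic sum in CD8 T cells was 6537 CPM and the inducible fold 1.497. At 1.5-fold, 14 members were higher and 9 lower in CD8 T cells, of 39.3% and 28.9% of genes. High cells were 11.8% and 4.30% at 5 per 10000 and 6.12% and 2.64% at 20 per 10000, in macrophages and CD8 T cells.

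Leaving out each run in turn, the inducible sum ranged from 1550 (without run 5) to 1703 CPM in macrophages and from 1449 (without run 6) to 1607 CPM in CD8 T cells. The ER sums ranged from 4231 to 4374 CPM and 2105 to 2173 CPM, and the cytosolic and mitochondrial sums in CD8 T cells from 6282 to 6630 CPM and 681 to 711 CPM. The folds of CD8 over macrophage ranged from 1.29 to 1.53 (inducible), 1.57 to 1.77 (cytosolic) and 0.589 to 0.715 (ER), with 3 to 6 members higher and 4 to 5 lower. The 3 higher members were left without run 3, which held 528 of the 1069 macrophages. The share of high cells ranged from 8.14% to 9.23% in macrophages and 2.47% (without run 6) to 4.09% (without run 3) in CD8 T cells. No paired analysis was possible because the barcodes name no sample. Depth limits mainly cDC1, regulatory T cells and the smaller non-immune gates, and Cryab in the immune cells.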
